A study of Mus musculus with 24 samples.

Results

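A set of 9 genes of the myelin sheath and of the oligodendrocytes that make it was followed through medial prefrontal cortex of 24 male BALB/c mice. The genes were chosen by name, and all 9 were among the 15456 genes with a normalized count: Mbp, Mobp, Cnp, Mag, Mog, Cldn11, Mal, Opalin and Ermn. The mice were 11 weeks old and fell into 4 groups of 6, namely controls labelled as untreated (given phosphate-buffered saline, per the methods), mice given daily intraperitoneal duloxetine (a serotonin and noradrenaline reuptake inhibitor), mice given the gut bacterium Ruminococcus flavefaciens live, by gavage, and mice given both, all treated chronically. Each mouse gave 1 poly(A) RNA-seq library of whole tissue, with 12811413 to 15607343 reads recovered from the normalized values and a median of 14455107. The comparisons ask whether the drug, the bacterium or their combination changed the RNA of the sheath.

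Myelin is oligodendrocyte membrane wrapped around an axon and squeezed into a compact, lipid-rich stack, which speeds conduction and lets the glial cell feed the axon. In the cortex it is laid down late and stays responsive to experience, and subcortical white matter holds far more of it than the gray matter above. Its genes are switched on together when an oligodendrocyte matures, under transcription factors that include SOX10 and MYRF.

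For 3 of the genes that held matches to the motifs searched, the stretches in front of the start are shown. RefSeq promoter windows of GRCm38.p6 run from 250 bases before a gene's start to 50 after it, in all 300 bases, and 8 of the 9 genes matched 1; Mbp is named only. Windows were searched on both strands for ACAAAG (the SOX core), CTGGCAC (MYRF), CAGCTG (an E-box) and TATAAA. The SOX core stood in 4 of the 8 windows (Mag, Mobp, Cnp and Opalin) and in 18.7% of all 27025 gene windows. The MYRF letters stood in 3 of the 8 (Mag, Cnp and Opalin) and in 4.995% of all. The E-box stood in 1 of the 8 (Opalin) and in 16.1% of all, and TATAAA in 0 of the 8 and in 14.2% of all. The windows of Mog, Cldn11, Mal and Ermn held none of these letters, and no 2 matches overlapped. The 250 bases before the start are printed 5′ to 3′ on the gene's strand, with matches in capitals, for Mag (chr7:30914864-30915113, minus strand), Mobp (chr9:120149492-120149741, plus strand) and Cnp (chr11:100574689-100574938, plus strand).
Mag: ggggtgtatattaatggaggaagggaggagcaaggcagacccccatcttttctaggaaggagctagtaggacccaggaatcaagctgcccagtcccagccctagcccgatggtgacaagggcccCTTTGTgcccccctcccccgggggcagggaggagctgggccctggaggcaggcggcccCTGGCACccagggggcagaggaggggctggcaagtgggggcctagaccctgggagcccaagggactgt
Mobp: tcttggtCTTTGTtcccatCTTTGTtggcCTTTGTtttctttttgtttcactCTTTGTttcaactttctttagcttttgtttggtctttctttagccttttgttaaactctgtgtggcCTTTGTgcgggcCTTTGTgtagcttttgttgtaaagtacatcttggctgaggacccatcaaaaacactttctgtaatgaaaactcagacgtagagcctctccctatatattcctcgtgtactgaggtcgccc
Cnp: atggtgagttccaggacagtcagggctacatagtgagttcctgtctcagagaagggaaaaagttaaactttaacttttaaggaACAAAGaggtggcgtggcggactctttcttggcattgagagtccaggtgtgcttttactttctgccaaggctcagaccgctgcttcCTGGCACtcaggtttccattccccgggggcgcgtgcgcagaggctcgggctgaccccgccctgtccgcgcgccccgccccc
Mag held 1 SOX core 126 bases and 1 MYRF match 68 bases before its start. Mobp held 6 SOX cores, the farthest 243 and the nearest 120 bases before the start. Cnp held 1 SOX core at 167 and 1 MYRF match at 81 bases before the start. In Opalin the matches sat on either side of the start, with a SOX core 139 bases before it and a SOX core and a MYRF match 23 and 36 bases after it. A match is a run of letters, and binding was not measured. Whether these letters bear on how the genes varied between mice was not tested.

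In GRCm38 Mag lies on chromosome 7 (30899176 to 30914873), Mog on 17 (37010743 to 37023398), Mobp on 9 (120149707 to 120181484), Cnp on 11 (100574904 to 100591729), Cldn11 on 3 (31149920 to 31164324), and Mal (127633226 to 127656695) and Ermn (58045113 to 58052864) on 2.

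The structural proteins of compact myelin came first. Mbp encodes myelin basic protein, which holds the cytoplasmic faces of the compact stack together, and was the most abundant of the genes per kilobase of its longest transcript, at 2266 normalized counts per kilobase on average. Mbp ran from 5722 to 14327 normalized counts in controls with a median of 9151, from 6266 to 16902 under duloxetine with a median of 9863, from 5103 to 17905 under R. flavefaciens with a median of 13046, and from 4963 to 19070 under both with a median of 9989. The 4 ranges overlapped, and the highest mouse of each treated group lay above every control. Mobp encodes a smaller basic protein on the same membrane face and followed at 1013 normalized counts per kilobase. It ran from 1274 to 4823 normalized counts in controls (median 2650), 1474 to 5788 under duloxetine (median 2904), 991 to 5584 under R. flavefaciens (median 4015) and 1181 to 6601 under both (median 3017). Its lowest and highest mice differed 6.66-fold. Exons of Mobp overlap those of Gm38642, a processed transcript on the same strand, which was not among the genes listed. Mal, a small proteolipid of lipid rafts that takes part in membrane sorting, lay at 439 normalized counts per kilobase. Its control mice held 563 to 1624 normalized counts (median 1022), its duloxetine mice 603 to 2066 (median 1082), its R. flavefaciens mice 447 to 2082 (median 1471) and its mice given both 464 to 2236 (median 1133). As in Mbp, each group held both low and high mice.

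The genes of non-compact myelin and of the junctions between its layers behaved alike. Cnp encodes a cyclic nucleotide phosphodiesterase that keeps cytoplasmic channels open within the sheath, and lay at 695 normalized counts per kilobase. It ran from 1117 to 2454 normalized counts in controls (median 1763), 1237 to 3122 under duloxetine (median 1754), 902 to 3118 under R. flavefaciens (median 2379) and 960 to 3486 under both (median 1943). Its exons overlap those of Dnajc7 on the opposite strand, and the sources used here do not say whether strand was used in counting. Dnajc7 held 1497 to 1778 normalized counts over the 24 mice and did not share the swings of Cnp. Cldn11, the claudin of the tight-junction strands that seal the layers, lay at 477 normalized counts per kilobase. It ran from 481 to 1181 normalized counts in controls (median 795), 451 to 1470 under duloxetine (median 772), 355 to 1461 under R. flavefaciens (median 1152) and 346 to 1576 under both (median 811).

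Of the surface proteins, Mag, a sialic acid-binding adhesion molecule on the inner membrane that faces the axon, lay at 356 normalized counts per kilobase, and Mog, an immunoglobulin-like protein of the outermost layer, at 148. Mag ran from 428 to 1170 normalized counts in controls (median 711), 452 to 1394 under duloxetine (median 723), 357 to 1374 under R. flavefaciens (median 1000.1) and 330.1 to 1679 under both (median 844). Mog ran from 126 to 342 normalized counts in controls (median 207), 114 to 433 under duloxetine (median 222), 91.7 to 413 under R. flavefaciens (median 304) and 93.2 to 463 under both (median 263). Both genes were lowest in mouse 2_2 and highest in mouse 2_3 among controls, as were the other 7.

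The remaining 2 genes mark mature oligodendrocytes. Ermn encodes a cytoskeletal protein that appears late in their maturation and lay at 137 normalized counts per kilobase. It ran from 242 to 683 normalized counts in controls (median 400.4), 233 to 960.2 under duloxetine (median 449), 189 to 866 under R. flavefaciens (median 591) and 169 to 888 under both (median 445). Ermn shares exonic positions with Galnt5 on the opposite strand, which was not among the genes listed. Opalin, a transmembrane glycoprotein of oligodendrocytes, was the least abundant per kilobase at 28.2. It ran from 39.1 to 108 normalized counts in controls (median 60.7), 34.3 to 150.3 under duloxetine (median 76.9), 16.8 to 108 under R. flavefaciens (median 78.2) and 29.0 to 203 under both (median 88.5). The lowest Opalin value rested on 17 reads and the highest on 210 reads, a 12.1-fold range in normalized counts, the widest of the 9. With the union of all exons as the length, Cnp passed Mobp into the second place (554 against 486 normalized counts per kilobase) and the order of the rest was kept.

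**Figure D1:**
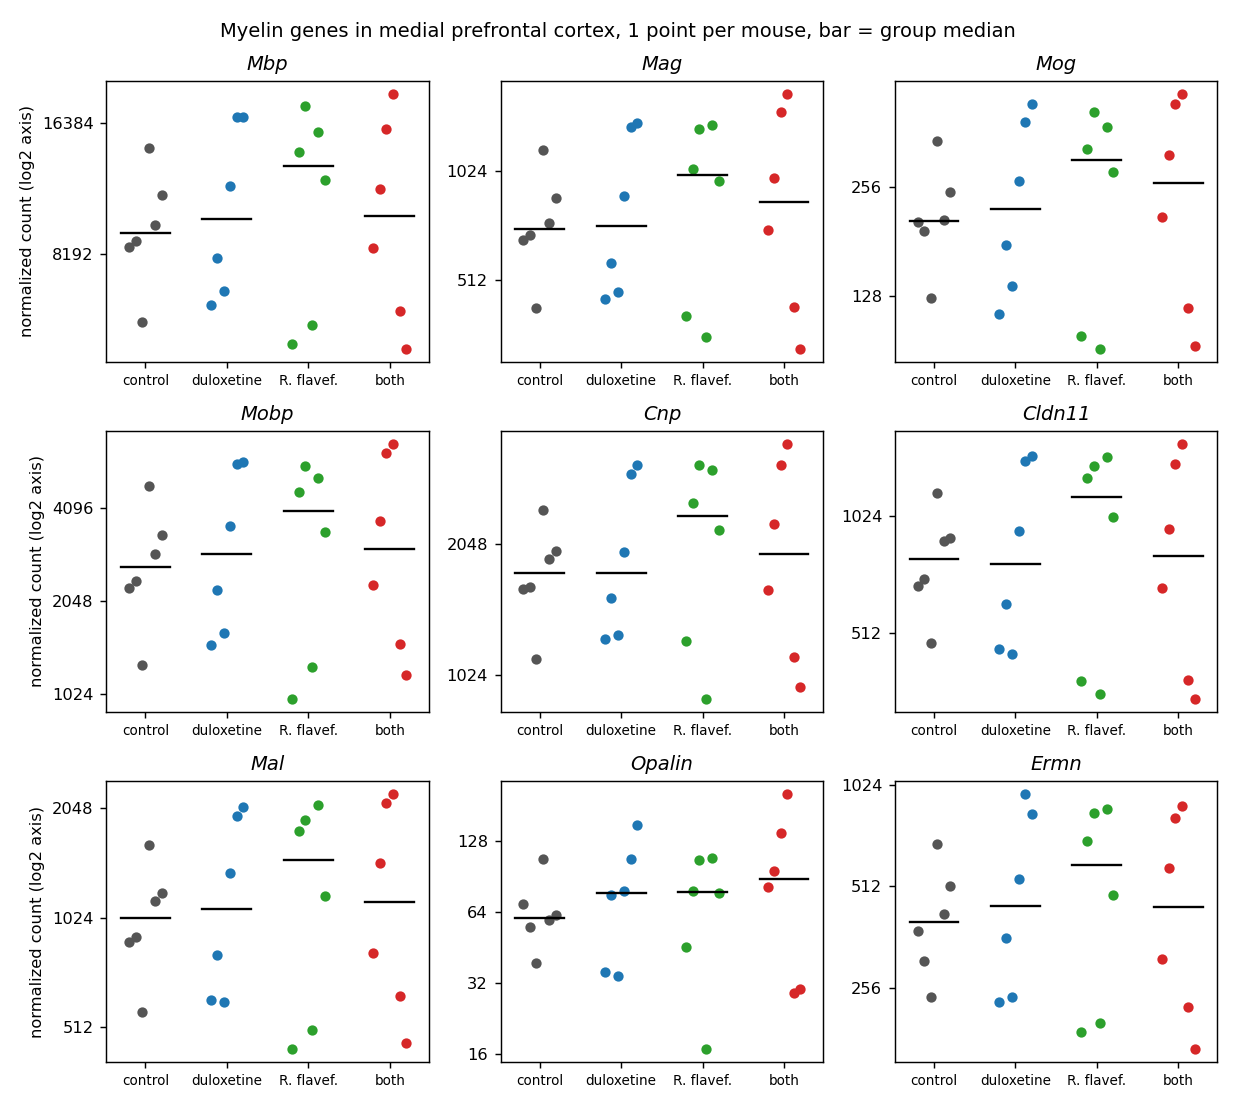
Normalized counts of the 9 myelin genes in each mouse (log2 vertical axis) by group, 1 point per mouse, with a black bar at the group median. For Mbp the control mice span 5722 to 14327 and the mice given both 4963 to 19070, and in each panel the 4 groups overlap.

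The largest differences lay between mice of the same group. With group means removed, the SD between mice was 0.64 for Cnp and 0.67 for Mbp on the log2 scale and reached 0.93 for Mobp, against a median of 0.15 over the 14974 genes tested. All 9 genes thus stood between the 98.6 and the 99.9 percentile of within-group spread. Of the 11936 genes averaging 50 normalized counts or more, 50 varied at least as much as Cnp, these 9 included. The joint score of the 9 genes described below had a Pearson r of 0.0088 with recovered reads over the 24 mice, given as a description.

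**Figure D2:**
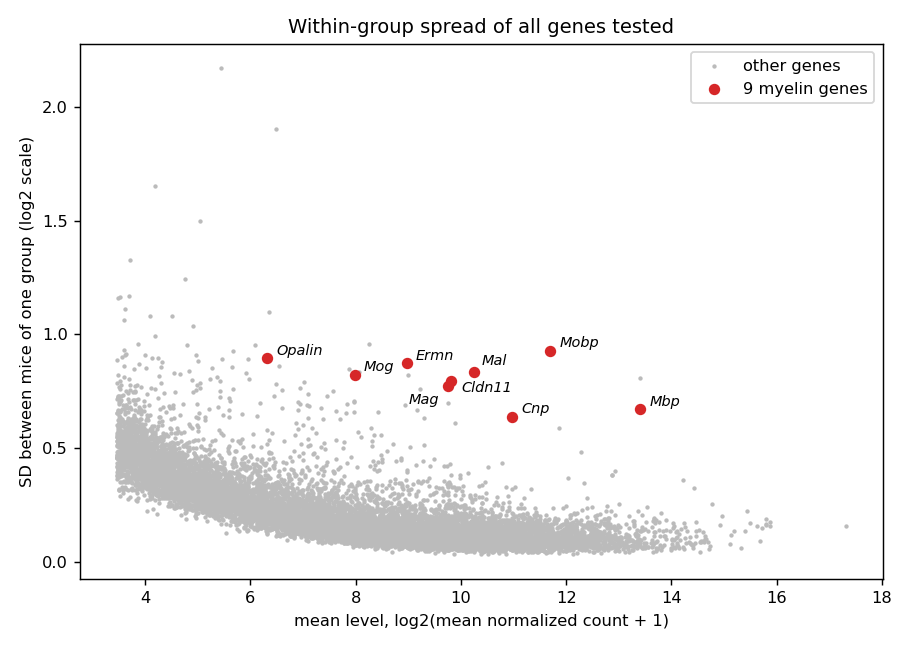
SD between mice of 1 group (vertical axis, log2 scale) against the mean level (horizontal axis, log2 of the mean normalized count plus 1) for all 14974 genes tested, with the 9 myelin genes in red. The 9 genes lie between 0.64 and 0.93, above nearly all genes of like abundance.

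The 9 genes moved as a block. In 11 mice every one of the 9 lay above its mean over all mice, in 8 mice every one lay below, and 5 mice were mixed. The mean of the 9 genes relative to those means was highest in mouse 12_2, given both treatments, at 2.15 times the geometric mean over mice, and lowest in mouse 9_1, given R. flavefaciens, at 0.44 times. Mice 6_3 and 6_2 under duloxetine stood at 1.89 and 1.79 times, and mice 5_1 and 5_4 of the same group at 0.57 and 0.59 times. In controls the extremes were 1.52 times in mouse 2_3 and 0.56 times in mouse 2_2. The SD of this mean level was 0.48 on the log2 scale in controls, 0.76 under duloxetine, 0.91 under R. flavefaciens and 0.94 under both, and whether the groups differ in spread was not tested. Together the 9 genes took 0.0601% to 0.256% of all normalized counts, and Mbp alone made up at least 50.3% of their sum in every mouse.

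**Figure D3:**
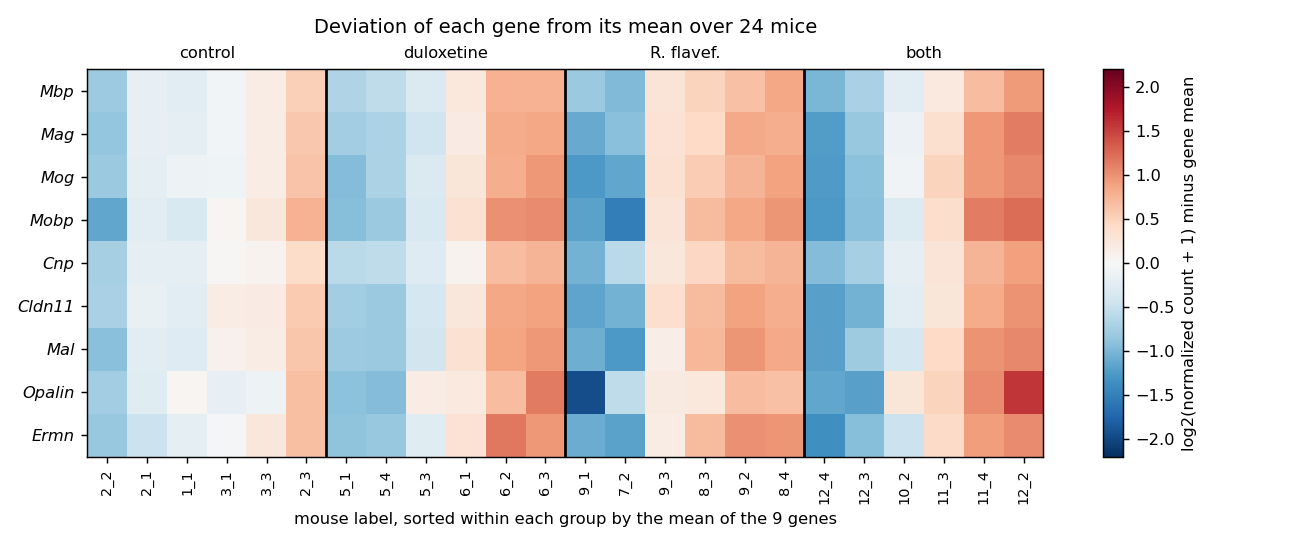
Deviation of each of the 9 genes from its mean over 24 mice (color, log2 scale), with mice in columns sorted within each group by the mean of the 9 genes. Columns are nearly uniform from top to bottom, and each group runs from low (blue) to high (red) mice, such as mouse 9_1 at 0.44 times and mouse 12_2 at 2.15 times the geometric mean over mice.

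Across the 24 mice with group means removed, the 28 gene pairs without Opalin had Pearson r of 0.98 or more, with a median of 0.99. The 8 pairs with Opalin had r of 0.91 to 0.96. Opalin was also the gene with the fewest reads. These values are descriptions, because the genes of 1 mouse share a dissection and a library. In whole tissue, fewer oligodendrocytes in a sample and less myelin RNA per cell cannot be told apart.

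Against this spread, no treatment moved the 9 genes past the threshold. In the limma fit of log2(normalized count + 1), with Benjamini-Hochberg adjustment over 14974 genes and a threshold of 0.05, 0 of the 9 passed in any of 8 comparisons, and 0 of the 9 had an unadjusted p under 0.05 in any of them. By limma, the share of all genes called was 0.0% for duloxetine against control, 0.0267% for R. flavefaciens against control, 0.1% for both against control, 0.0% for both against duloxetine, 2.23% for both against R. flavefaciens, 0.0% for the interaction, 1.03% for duloxetine averaged over the bacterium and 0.0267% for R. flavefaciens averaged over the drug. At an unadjusted p under 0.05 the share of all genes was, in the same order, 3.83%, 19.6%, 16.8%, 5.9%, 19.7%, 7.53%, 14.9% and 18.1%. DESeq2 and edgeR on the recovered reads also called 0 of the 9 in each comparison and gave 0 of the 9 an unadjusted p under 0.05. In the same order, the share of all genes past an adjusted p of 0.05 was 0.00668%, 3.26%, 1.45%, 0.00668%, 4.17%, 0.0%, 2.14% and 2.95% by DESeq2, and 0.0%, 0.0267%, 0.114%, 0.0%, 2.18%, 0.0%, 0.935% and 0.0267% by edgeR. Since the 9 genes vary almost as 1, their counts amount to little more than 1 observation per comparison.

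Under duloxetine all 9 genes had means above control, by 0.04 (Cldn11) to 0.18 (Ermn) on the log2 scale with a median of 0.12, where the median of all genes was -0.0018. The member with the smallest p was Ermn (log2 fold change 0.18 ± 0.44, SE; limma adjusted p = 0.9996, with 95% interval -0.72 to 1.07). Mbp stood at 0.13 ± 0.34 (limma adjusted p = 0.9996). The SE of each gene exceeded its difference from control.

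Under R. flavefaciens 8 genes were above control and Opalin was at -0.02, with a median of 0.15 against 0.0031 for all genes. Cnp had the smallest p (0.19 ± 0.32, limma adjusted p = 0.79, interval -0.47 to 0.84), and Mbp stood at 0.18 ± 0.34 (limma adjusted p = 0.82). Medians of normalized counts differed more than means of log values here, as 4 of the 6 mice lay high and mice 7_2 and 9_1 far below. One of the high mice, 8_4, carried 10539 normalized counts of the 10 striatum markers, where the median mouse had 4119, and 890.2 of 4 choroid plexus and ependyma markers against a median of 86.0. Without mouse 8_4 the median difference of the 9 genes from control was -0.0059. Leaving out each of the 24 mice in turn, it ran from -0.033 to 0.37, so the low end came from another mouse. Mouse 9_2 of this group was almost as high in the 9 genes, at 1.76 times the geometric mean over mice against 1.78 times in 8_4. The part of these markers in the difference was not tested.

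With both treatments 8 genes were above control and Cldn11 was at -0.03, with a median of 0.12 against 0.00072 for all genes. Opalin had the smallest p (0.28 ± 0.45, limma adjusted p = 0.78, interval -0.64 to 1.21), and Mbp stood at 0.07 ± 0.34 (limma adjusted p = 0.93). These 3 comparisons share the same 6 control mice, of which mouse 2_2 was low and mouse 2_3 high in all 9 genes. The like signs of the comparisons are therefore not separate observations.

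Differences between treated groups were as unsettled as those from control. Both treatments against duloxetine alone gave a median of -0.0040 with 4 genes above and 5 below, and Ermn had the smallest p (-0.13 ± 0.44, limma adjusted p = 0.97). Both against R. flavefaciens alone gave a median of -0.03 with 3 above and 6 below, led by Opalin (0.30 ± 0.45, limma adjusted p = 0.76). The interaction of drug and bacterium had a median of -0.15, with 8 genes negative, and wide intervals, from -1.60 to 0.94 for Ermn (-0.33 ± 0.62, limma adjusted p = 0.90). Averaged over the bacterium, duloxetine gave a median of 0.03, led by Opalin (0.23 ± 0.32, limma adjusted p = 0.79), and averaged over the drug, R. flavefaciens gave a median of 0.06, led by Cnp (0.09 ± 0.23, limma adjusted p = 0.87). Exact permutation tests of single genes over all groupings of the 12 mice compared, two-sided, gave no p below 0.58 in 45 tests (adjusted p of 0.998 or more), where the smallest p these groups allow is 0.0022. The intervals against control reached from -0.95 to 1.21, and differences within the interval of a gene cannot be told from 0 in these mice.

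Since 1 shared level carried most of the spread, each gene was also compared at an equal level of other myelin genes. The mean log2 value of 37 other myelin and mature oligodendrocyte genes of the same mouse was added to the fit. This fit was added after the values were seen, and its covariate comes from the treated mice themselves. The 37 genes include some, given below, that did not follow the 9, and Gjb6, which is also on the list of astrocyte markers. Their mean is thus not a pure measure of myelin content. SEs of comparisons with control fell from 0.32 to 0.46 down to 0.05 to 0.16, and 0 of the 9 genes passed in any of the 8 comparisons (limma, adjusted p under 0.05), where 0.0%, 1.74%, 0.654%, 0.0%, 4.49%, 0.0%, 1.73% and 0.568% of all genes passed, in the order above. At an unadjusted p under 0.05 there were 1, 0, 1, 0, 3, 0, 1 and 0 of the 9 genes, against 4.36%, 21.8%, 18.4%, 8.18%, 22.4%, 9.62%, 16.9% and 20.3% of all genes. Cldn11 made up 4 of these 6. At an equal level of the 37 genes it was at -0.18 ± 0.05 with both treatments against control (limma adjusted p = 0.091), at -0.17 ± 0.05 with both against R. flavefaciens (limma adjusted p = 0.069) and at -0.14 ± 0.04 for duloxetine averaged over the bacterium (limma adjusted p = 0.055). The other 2 were Ermn (-0.16 ± 0.07, limma adjusted p = 0.15) and Mbp (-0.11 ± 0.05, limma adjusted p = 0.16), both for both treatments against R. flavefaciens. The median of the 9 genes moved from 0.12 to -0.010 under duloxetine, from 0.15 to 0.0080 under R. flavefaciens and from 0.12 to -0.027 under both against control, and from 0.03 to -0.042 for duloxetine averaged over the bacterium. Under duloxetine Mag, Mog, Mobp, Cnp, Cldn11 and Mal turned below 0, and under both every gene but Opalin lay below 0. Apart from Opalin, whose intervals reached from -0.49 to 0.46, the genes had narrow intervals against control here.

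**Figure D4:**
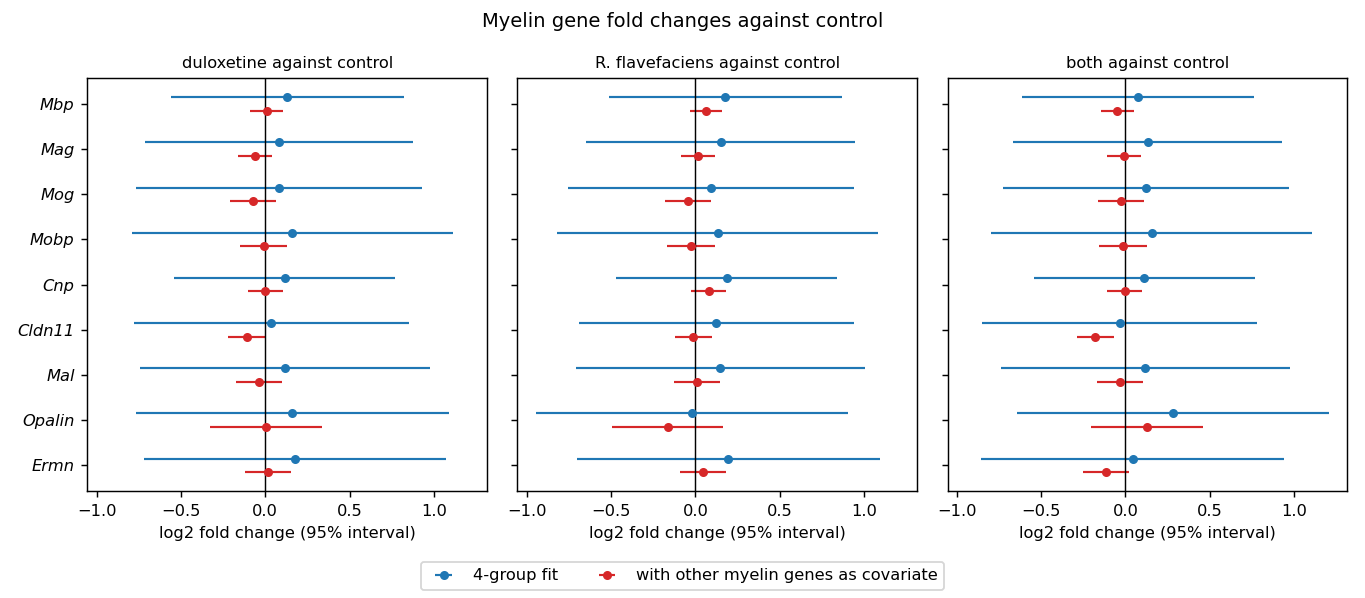
Log2 fold change of each gene against control with its 95% interval in 3 comparisons, from the fit of the 4 groups (blue) and from the fit that adds the mean of 37 other myelin genes of the same mouse (red). Every blue interval spans 0, and of the red ones only those of Cldn11 under duloxetine and under both lie below 0, with adjusted p of 0.9987 and 0.091.

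Some of the genes most like the 9 were on the lists of oligodendrocyte genes described next. Among 11927 genes averaging 50 normalized counts or more, those with the highest Pearson r to the members' score, which is the mean of their within-group deviations each divided by its SD, included Tspan2 (0.993), Gpr37 (0.991), Plekhg3 (0.991), Bcas1 (0.991), Ugt8a (0.991), Evi2a (0.988), Tmem88b (0.987), Plekhb1 (0.986) and Ttyh2 (0.986). Bcas1 marks oligodendrocytes that are starting to myelinate, and Ugt8a makes galactosylceramide, the main glycolipid of the sheath. Of the 10 highest, 8 were on those lists, and Plekhg3 and Ttyh2 were on none. In all, 98 genes had r over 0.9, of which 39 were on a list and the rest on none. Using all values in place of deviations kept 9 of the top 10, and leaving out mouse 9_1, the mouse with the most extreme score, kept 7 of the 10. The 3 lowest were Ndfip1 (-0.88), Fam174b (-0.87) and Nol4 (-0.86), whose levels varied 1.43-fold, 1.57-fold and 1.53-fold over the mice. Using all values kept 1 of these 3, and leaving out mouse 9_1 kept 2.

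The genes of the lineage differed in how closely they followed. Of 37 other myelin and mature oligodendrocyte genes, 25 had r over 0.9, with a median of 0.96, although Tppp (-0.34) and Tubb4a (0.49), which are among the most abundant of that list, did not follow. Of 10 genes of myelin lipid synthesis 8 had r over 0.9, among them Ugt8a (0.99) and Cers2 (0.98), a synthase of very long chain ceramides, while Sgms1 was at 0.03. Of 13 oligodendrocyte transcription factors 4 did, with a median of 0.77, Olig1 at 0.89, Sox8 at 0.74 and Zeb2 at -0.02. Genes of newly formed oligodendrocytes (3 of 13 over 0.9) had a median of 0.59, where Sirt2 was at 0.94, Samd4b at 0.13 and the kinase gene Fyn at -0.21. Genes of oligodendrocyte precursor cells (0 of 14 over 0.9) had a median of 0.58, with Ptprz1 at 0.52, Cspg5 at 0.14 and Tnr at -0.41. In none of these 5 lists did any gene pass the threshold in any of the 8 comparisons (limma). Relative to control, the 37 other myelin genes had a median difference on the log2 scale of 0.08 under duloxetine, 0.13 under R. flavefaciens and 0.10 under both.

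Genes of the axon that the sheath contacts mostly did not follow the myelin genes. The 12 axonal and paranodal partners had a median r of -0.29, 8 of them below 0, with Ank3, the ankyrin of the node, at -0.10, Cntn1 at -0.43 and the sodium channel gene Scn8a at -0.44. The exception was Cntn2 at 0.89, singled out after its values were seen. Of 18 receptors and ligands that regulate myelination, Ntrk2 (-0.21), Lingo1 (-0.77), a brake on oligodendrocyte differentiation, and Erbb4 (-0.05) were the most abundant. The 18 genes had a median r of 0.29, with 7 below 0 and 3 over 0.9, so the most abundant do not stand for the list. None of these 30 genes passed the threshold in any comparison (limma). Against control, the axonal partners had a median log2 difference of -0.03 under duloxetine, -0.20 under R. flavefaciens and -0.11 under both, with 0, 7 and 2 of the 12 at an unadjusted p under 0.05, where 3.83%, 19.6% and 16.8% of all genes were. Averaged over the drug, R. flavefaciens gave -0.15 and 8 of 12, beside 18.1% of all genes. Mouse 9_3, given R. flavefaciens, had the lowest sum of these genes (38309 normalized counts, where the median mouse had 53186), and without it the median under R. flavefaciens was -0.13.

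**Figure D5:**
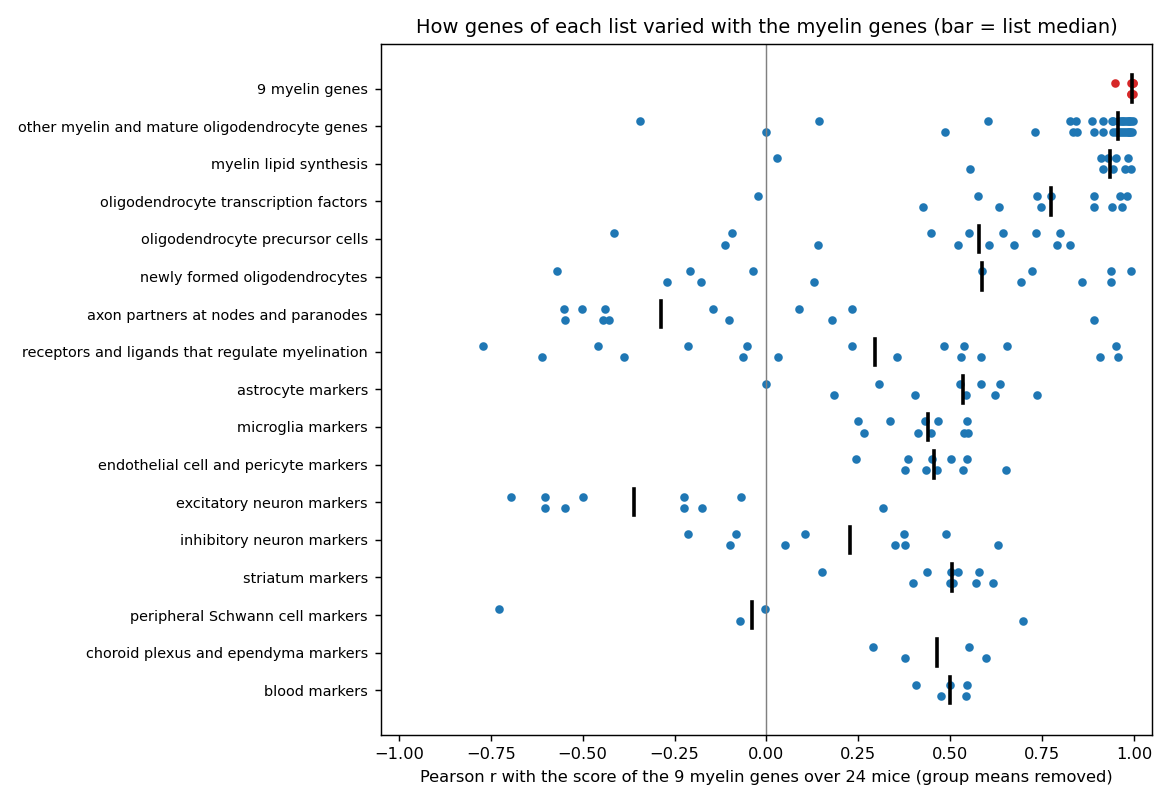
Pearson r of each gene with the score of the 9 myelin genes over 24 mice, group means removed, by gene list, with a black bar at the list median. The medians are 0.96 for other myelin genes, 0.58 for precursor cells and -0.36 for excitatory neurons.

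Other cell types moved less with the 9 genes. Medians of r over 10 genes each were 0.53 for astrocytes (Slc1a2 0.31, Aldoc 0.53, Slc1a3 0.64), 0.44 for microglia (Csf1r 0.47, Cx3cr1 0.55), 0.46 for endothelial cells and pericytes (Rgs5 0.55, Flt1 0.53, Cldn5 0.38), 0.23 for inhibitory neurons (Gad1 -0.08, Gad2 0.05, Sst 0.63) and -0.36 for excitatory neurons (Camk2a -0.22, Slc17a7 -0.60, Nrgn -0.50). Their summed normalized counts ran over 1.57-fold in astrocytes, 1.54-fold in microglia, 1.55-fold in endothelial cells and pericytes, 1.23-fold in inhibitory neurons and 1.19-fold in excitatory neurons, where the sum of the 9 myelin genes ran over 4.24-fold. The sums ran over 1.49-fold in Schwann cell genes, 2.82-fold in striatum markers, 3.96-fold in blood genes and 22.3-fold in choroid plexus and ependyma genes. The 10 striatum markers (Pde10a 0.15, Gng7 0.52, Ppp1r1b 0.62) had a median of 0.50, and their sum ran from 3731 to 10539 normalized counts, highest in mouse 8_4 and next at 6898 in mouse 11_4, both among the mice high in myelin RNA. Mouse 12_2, the highest in the 9 genes, held 4188. The 5 blood genes listed (Hbb-bs 0.54, Hba-a1 0.50, Hba-a2 0.41) had a median of 0.50, and the 4 choroid plexus and ependyma genes (Kl 0.29, Ttr 0.38, Foxj1 0.55) one of 0.46. Schwann cells make the myelin of peripheral nerve. The gene Pmp2 of these cells was not among the genes with a value, and the 4 genes listed for them (Mal2 at -0.73, Egr2 at -0.07 and Cdh19 at 0.70 being the most abundant) had a median of -0.04. Mal2 is not a defining gene of these cells. Against control, no gene of these lists passed the threshold (limma), and several lists had medians farther from 0 than the 9 myelin genes. Under R. flavefaciens, where 19.6% of all genes had an unadjusted p under 0.05 and the 9 genes a median log2 difference of 0.15, it was 0.75 for blood (4 of 5 at such a p), 0.74 for choroid plexus and ependyma (1 of 4), 0.23 for striatum (1 of 10), 0.22 for microglia (6 of 10), 0.15 for astrocytes (3 of 10), 0.13 for inhibitory neurons (5 of 10), 0.08 for endothelial cells and pericytes (0 of 10), -0.05 for Schwann cells (0 of 4) and -0.06 for excitatory neurons (4 of 10). Under both treatments, where 16.8% of all genes had such a p and the 9 genes a median of 0.12, it was 0.78 for blood (5 of 5), 0.50 for choroid plexus and ependyma (1 of 4), 0.27 for microglia (7 of 10), 0.18 for endothelial cells and pericytes (4 of 10), 0.16 for astrocytes (4 of 10), 0.07 for striatum (0 of 10), 0.03 for inhibitory neurons (2 of 10), -0.11 for excitatory neurons (2 of 10) and -0.21 for Schwann cells (1 of 4). Under duloxetine, where 3.83% of all genes had such a p and the 9 genes a median of 0.12, blood stood at 0.30 (0 of 5), microglia at 0.18 (4 of 10) and Schwann cells at -0.15 (1 of 4), and the other 6 lists lay between -0.05 (striatum) and 0.10 (endothelial cells and pericytes) with 0 or 1 gene each. Past the threshold in other comparisons were Dlx5, an interneuron transcription factor, with both treatments against R. flavefaciens (-0.62 ± 0.15, limma adjusted p = 0.034), and Egr2, a transcription factor of Schwann cells that neurons also express, for duloxetine averaged over the bacterium (-0.84 ± 0.20, limma adjusted p = 0.039). The part of tissue composition in the spread of the 9 genes was not tested.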

How the data were processed

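Per the methods and the labels, the authors sequenced poly(A) libraries (NEBNext Ultra, HiSeq 2500), aligned reads with TopHat2 (2.1.0) and Bowtie2 (2.2.6) and normalized counts with DESeq2 (1.18.1). The deposited values are gene counts divided by a size factor per mouse, a coverage-like signal. The counting program, strand setting and gene filter are not given in the sources used here. Positions are those of GRCm38. Whole multiples of 1 read (within 0.0051) made up 99.997% of the 370875 values above 0, and reads were recovered from them. Genes with a mean of at least 10 were tested with limma (3.58.1, R 4.3.3) on log2(value + 1) in 1 fit of 24 mice, with Benjamini-Hochberg adjustment. DESeq2 (1.42.0) and edgeR (4.0.16) on recovered reads, another pseudocount (0.1), filters (none, 50), rescalings, a replicate block and leaving out each mouse were alternatives. Fits were tested on simulated data. Members, lists and tests were chosen with earlier results of these data known. Named were all members, the 3 most abundant and every called gene of each list, the 10 genes with the highest and the 3 with the lowest r, and the member with the smallest p in each comparison. Some genes that this rule names are not reported here. Transcript lengths come from GENCODE M21. Mice were group housed, per the methods; which mice shared a cage or a dissection day is not given in the sources used here, so p-values measure only the spread between these mice. Of the symbols, 23 had been altered to dates and were read by gene ID.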

Additional observations from a re-analysis of the deposited data

How the results depend on the processing

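No member passed the threshold under any of the alternatives run, in any comparison: pseudocount 0.1, no filter or a minimum mean of 50, only the groups compared, quantile or 75th percentile rescaling, DESeq2, edgeR, a replicate block by the number that opens each mouse's label, the added covariate, and each of 24 mice left out. Groups shared no replicate numbers, and the block (correlation -0.045, 1 value for all genes tested) changed no call. That value does not describe the 9 genes. Their mean level in duloxetine mice 5_1, 5_3 and 5_4 was 0.57, 0.82 and 0.59 times the geometric mean over mice. In 6_1, 6_2 and 6_3 it was 1.19, 1.79 and 1.89 times. Elsewhere mice with the same first number lay far apart, such as 12_2 at 2.15 and 12_4 at 0.44 times. Grouping by this number was not tested in the 9 genes. With the covariate of other myelin genes, Mbp with both treatments against control turned from 0.07 to -0.048, and the median of the members turned from 0.12 to -0.010 under duloxetine, from 0.12 to -0.027 under both, from 0.03 to -0.042 for duloxetine averaged over the bacterium and from 0.06 to -0.00088 for R. flavefaciens averaged over the drug. Leaving out 1 mouse at a time, Mbp ran from -0.014 to 0.27 under duloxetine and from -0.12 to 0.27 under both against control, Ermn from -0.038 to 0.37 under duloxetine against control and from -0.35 to 0.12 for both against duloxetine, and Opalin from -0.062 to 0.57 for both against R. flavefaciens (without R. flavefaciens mouse 9_1 at the low end). The median of the members ran from -0.06 to 0.27 under duloxetine, from -0.03 to 0.37 under R. flavefaciens and from -0.09 to 0.36 under both against control, from -0.21 to 0.25 for both against duloxetine, from -0.28 to 0.21 for both against R. flavefaciens and from -0.41 to 0.096 for the interaction, so the sign of these differences rests on single mice. By DESeq2 the medians were 0.20, 0.29 and 0.29, with all 9 above control in each. All-gene calls by DESeq2 were 488 for R. flavefaciens against control and 217 for both against control, where limma had 4 and 15. With the union of exons, Mbp lay at 1283 normalized counts per kilobase. The lowest value of the least abundant member, Opalin, rested on 17 reads, which limits its precision. The value of the axonal partners without mouse 9_3 was added after seeing the data.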
